A study of Homo sapiens with 6 samples.

Results

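Probe sets of 10 genes were examined here: the nuclear receptors NR4A1, NR4A2 and NR4A3, and the Krüppel-like zinc finger factors KLF2, KLF3, KLF4, KLF5, KLF6, KLF9 and KLF10. The members are all probe sets that the platform annotation gives to exactly 1 of these genes, 30 of 54613 probe sets and 10 of 19775 genes named on the array. The samples were 6 arrays (Affymetrix HG-U133 Plus 2.0), all labelled as the established human cell line Capan-1, pancreatic carcinoma cells grown as a monolayer. The p16 group (3 samples, numbered V1 to V3) had been transfected with a full-length p16INK4a cDNA in the vector pRC/CMV, where the CMV promoter drives it, and the mock group (3 samples, V1 to V3) had been mock-transfected. Per the labels, transfected cells were selected with hygromycin and G418. The labels do not say whether a sample was 1 clone or a separate culture, so the spread behind each p-value may be technical. All levels are log2 values made by the authors with GCRMA, and a difference is always p16 minus mock on that log2 scale.

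NR4A receptors are orphan nuclear receptors whose genes are switched on within minutes by growth factors, cAMP, calcium and stress, and they act largely through their own abundance rather than through a ligand. NR4A1 is also called NUR77, NR4A2 NURR1 and NR4A3 NOR1. The KLF proteins bind GC-rich and CACCC sequences through zinc fingers at their C terminus, and several of them (KLF2, KLF4, KLF6 and KLF10) are, like the NR4A genes, induced early by external signals. In gut-type epithelium KLF4 is typical of differentiated, resting cells and KLF5 of proliferating cells.

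Promoter sequences are shown for the member with the largest fall on its brightest probe set (NR4A1), for 2 KLF genes that fell (KLF2 and KLF4) and for the member that was at the floor on every array (NR4A3). They run from 250 bases before to 50 after a gene's start and were taken from RefSeq (GRCh38.p14), printed 5′ to 3′ on the gene's strand. Of the 10 members, 7 had an entry there, with 9 promoters in all, and NR4A1 and KLF5 had 2 each. Capitals mark matches on either strand to the core of the cAMP response element (TGACG), the CACCC box (CACCC) and the GC box (GGGCGG), and matches may overlap, as do 2 in the NR4A3 promoter that share bases.
NR4A1, first start, chr12:52022582-52022881, plus strand: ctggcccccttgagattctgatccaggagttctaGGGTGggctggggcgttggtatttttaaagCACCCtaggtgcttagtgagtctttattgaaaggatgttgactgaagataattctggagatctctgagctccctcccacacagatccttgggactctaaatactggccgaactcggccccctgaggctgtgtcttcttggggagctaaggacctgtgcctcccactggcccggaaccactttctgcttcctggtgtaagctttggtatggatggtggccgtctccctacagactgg
NR4A1, second start, chr12:52037465-52037764, plus strand: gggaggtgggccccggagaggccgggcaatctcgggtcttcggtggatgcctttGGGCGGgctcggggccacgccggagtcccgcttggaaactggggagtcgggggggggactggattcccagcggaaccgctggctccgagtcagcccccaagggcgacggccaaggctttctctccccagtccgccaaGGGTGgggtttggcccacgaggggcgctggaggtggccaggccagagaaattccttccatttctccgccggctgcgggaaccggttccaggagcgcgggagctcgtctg
KLF2, chr19:16324576-16324875, plus strand: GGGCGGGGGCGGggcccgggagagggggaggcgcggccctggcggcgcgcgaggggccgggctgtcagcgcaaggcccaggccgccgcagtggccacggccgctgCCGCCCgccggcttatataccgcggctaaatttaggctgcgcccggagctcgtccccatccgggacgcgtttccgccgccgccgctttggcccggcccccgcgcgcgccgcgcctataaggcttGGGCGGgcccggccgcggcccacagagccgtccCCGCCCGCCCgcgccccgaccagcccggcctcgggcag
KLF4, chr9:107489720-107490019, minus strand: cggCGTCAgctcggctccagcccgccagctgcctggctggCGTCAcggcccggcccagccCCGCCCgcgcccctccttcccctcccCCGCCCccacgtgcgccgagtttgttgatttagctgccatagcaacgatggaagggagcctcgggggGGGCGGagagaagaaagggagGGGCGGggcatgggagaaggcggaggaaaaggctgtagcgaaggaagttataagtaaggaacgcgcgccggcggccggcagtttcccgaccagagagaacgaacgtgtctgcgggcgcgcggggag
NR4A3, chr9:99821635-99821934, plus strand: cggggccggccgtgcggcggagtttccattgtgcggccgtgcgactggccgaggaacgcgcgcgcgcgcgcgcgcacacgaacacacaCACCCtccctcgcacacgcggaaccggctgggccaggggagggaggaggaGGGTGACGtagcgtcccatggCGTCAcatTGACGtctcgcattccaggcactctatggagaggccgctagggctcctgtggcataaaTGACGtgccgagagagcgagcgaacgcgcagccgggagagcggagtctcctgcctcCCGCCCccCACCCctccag

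No motif searched was in all 9 promoters. The KLF2 promoter, with a GC content of 80.7%, held 6 GC boxes, the KLF4 promoter held 4 GC boxes and 2 cores of the cAMP response element, and the NR4A3 promoter held 4 such cores and 3 CACCC boxes. The 2 NR4A1 promoters held no such core. Among 35116 promoters of the same length, 24.6% held the core, 59.9% a CACCC box and 45.0% a GC box, against 3, 5 and 6 of the 9 member promoters. The full cAMP response element (TGACGTCA) and the CArG box, to which serum response factor binds, were in none of the 9, and in 1.85% and 1.29% of all promoters. A match is a description of letters, and no match says only that these letters are not in this window.

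The arrays were alike in their overall distribution, with medians of 3.11 to 3.19 and 42.9% to 43.6% of probe sets at or above 4, a level below which GCRMA values crowd at a floor. CDKN2A, the transfected gene, lay at 2.02 to 2.03 in the mock arrays and 11.88 to 11.96 in the p16 arrays on one probe set (207039_at), and at 5.61 to 6.43 and 12.12 to 13.01 on the other tested (209644_x_at). MTAP, a chromosomal neighbour of CDKN2A that is no part of a p16 cDNA, lay at 2.06 to 2.07 in mock and 10.77 to 11.35 in p16 arrays (231984_at, at least 133-fold higher). Every comparison below is therefore of 2 groups of arrays that differ in more than the transfected gene, and what p16 contributed to a difference cannot be told apart from the rest. Whether both groups come from the same line, as the labels give it, was not tested. Of 9 duct epithelial markers on the array, CFTR alone lay under 4 on every array, and the mean level over the markers was 12.41 to 12.74 in mock and 9.94 to 10.35 in p16 arrays. On their brightest probe sets 6 of the 8 tested were called lower and none higher, with a median difference of -2.38. Of all genes tested 22.5% were called lower and 19.5% higher, with a median of -0.03. The 6 leukocyte and 6 endothelial markers all lay under 4 on every array. Of 8 fibroblast markers, COL1A2, COL3A1, DCN and FAP lay under 4 on every array, LUM and PDGFRB on every mock array alone, and the mean over the list was 3.45 to 3.53 in mock and 4.44 to 4.72 in p16 arrays. LUM rose at least 30.4-fold, the only call among the brightest probe sets of the 3 fibroblast markers tested, and 2 of the 3 tested probe sets of COL1A1, its brightest not among them, were called higher. The part of these marker differences in the results below was not tested.

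Levels of the NR4A and KLF genes were lower in p16 cells wherever a difference passed the test. Of the 30 probe sets, 21 from 9 genes reached 4 on at least 3 of the 6 arrays and were tested, and 9 lay under 4 on every array (2.06 to 3.96) and were not. By limma with Benjamini-Hochberg adjustment over all 24406 probe sets tested, 8 of the 21 fell and none rose, where 19.7% of all tested probe sets fell and 17.5% rose. None of the 21 was higher at an unadjusted p under 0.05 either, with or without a block. With a replicate block for the V number, 18 of the 21 fell and none rose, against 32.6% and 30.9% of all tested probe sets. Without the V1 array of both groups 17 fell, and without the p16 V3 array 5 did. Over all 24406 probe sets tested, 6811 fell and 6621 rose without V1, and 3492 and 2926 without p16 V3. In 11 of the 21 every p16 array lay below every mock array (26.1% of all tested probe sets) and in none above (25.7%), and in 19 the p16 array was the lower within each V number (40.2%). The median difference over the 21 was -1.35, beside -0.0011 over all tested probe sets. These counts describe the chosen members and are no evidence on the families.

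**Figure D1:**
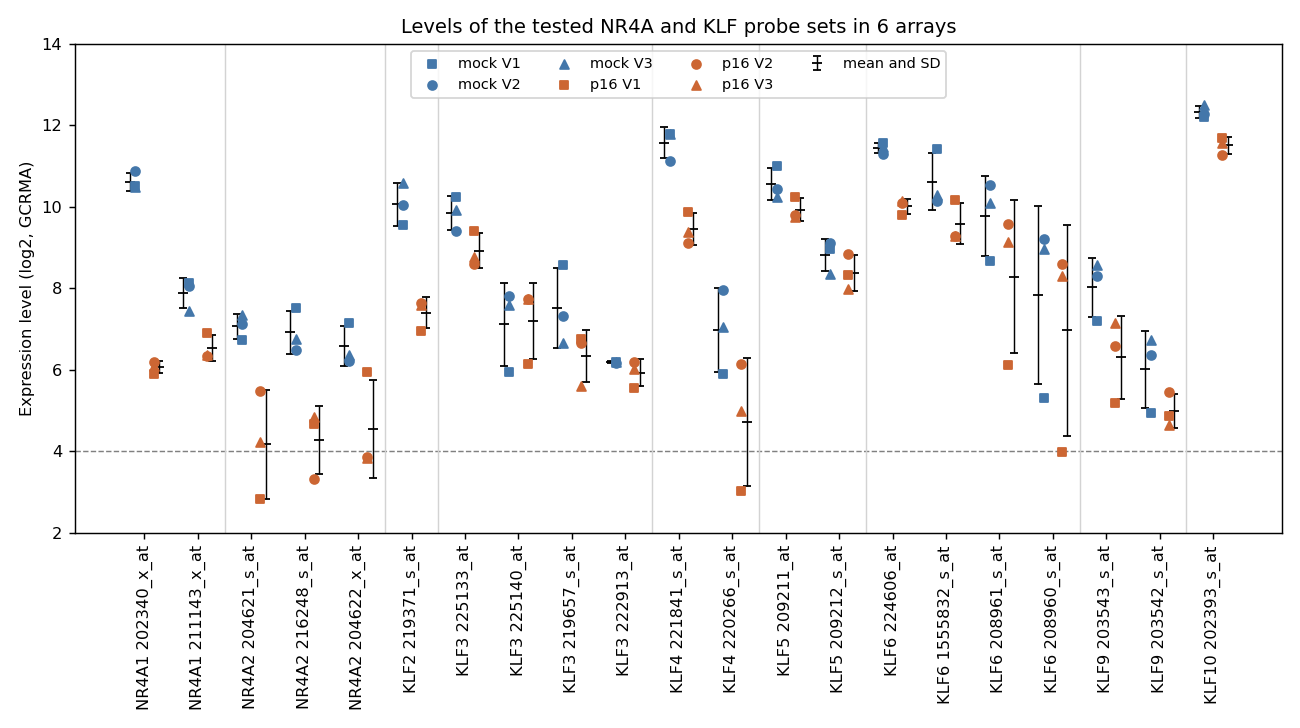
Expression level (log2, GCRMA) of each tested NR4A and KLF probe set on the 6 arrays, mock in blue and p16 in orange, with squares, circles and triangles for V1, V2 and V3, and bars for the mean and SD of 3 arrays; the dashed line is the floor of 4. The 2 groups are far apart for NR4A1 (202340_x_at), KLF2 and KLF4 (221841_s_at), while several KLF6 and KLF9 probe sets spread with the V1 square.

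NR4A1 had the largest fall of the members on its brightest probe set, while the mean over its 2 tested probe sets differed by -2.95, beside -2.66 for KLF2 and -2.53 for NR4A2 by the same rule. Its brighter probe set (202340_x_at) read 10.51, 10.88 and 10.48 in the mock arrays V1 to V3 and 5.89, 6.19 and 6.09 in the p16 arrays. The 3 mock arrays were all high, the 3 p16 arrays all lower, and the groups lay far apart. The difference was -4.56 (SE 0.19, 95% confidence interval -5.03 to -4.09), a 23.6-fold lower level (limma adjusted p = 3.1e-05). The second tested probe set (211143_x_at) read 8.13, 8.05 and 7.45 in mock and 6.91, 6.33 and 6.35 in p16 arrays. It did not overlap between groups either, but its difference was smaller, at -1.35 (SE 0.28, adjusted p = 0.012), and it lost its call without the p16 V2 array (adjusted p = 0.051) or the p16 V3 array (0.053). The suffix _x_at marks probe sets with probes that can match other sequences, which applies to both. The third probe set (210226_at) stayed under 4 on every array, at 2.38 to 3.72.

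The 3 genes whose sample profile lay nearest that of NR4A1, by the root mean square difference of centred log2 values over the 6 arrays, were EEIG1 (0.16), RAB31 (0.19) and SYT12 (0.21). RAB31, a small GTPase of vesicle traffic, changed by -4.66, EEIG1 by -4.26 and SYT12, of the synaptotagmin family, by -4.78 with all its p16 arrays under 4. With 2 groups and 6 arrays such a likeness mostly reflects a group difference of the same size.

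NR4A2 was lower on all 3 of its probe sets, and its p16 levels came close to the floor. The first (204621_s_at) read 6.73, 7.13 and 7.33 in mock arrays V1 to V3 and 2.81, 5.48 and 4.21 in p16 arrays. The mock arrays lay close together, and the p16 arrays were spread widely below them with V1 lowest. The fall was -2.90 (SE 0.67, adjusted p = 0.020), or at least 5.67-fold with values under 4 raised to 4, and it was -2.22 without the p16 V1 array and -3.55 without the p16 V2 array. The second (216248_s_at) read 7.51, 6.49 and 6.76 in mock and 4.66, 3.31 and 4.85 in p16 arrays, a fall of -2.65 (SE 0.49, adjusted p = 0.0090), or at least 5.34-fold. The third (204622_x_at) read 7.14, 6.22 and 6.37 in mock and 5.93, 3.86 and 3.82 in p16 arrays. Its groups did not overlap, with the p16 V1 array nearest the mock ones, and its difference of -2.04 missed the threshold (adjusted p = 0.053) but passed with the replicate block (0.0047) and without the p16 V1 array (0.0044). The call of 204621_s_at was lost without the mock V2 (adjusted p = 0.065), mock V3 (0.072) or p16 V3 array (0.065), and when probe sets at the floor were kept in the adjustment (0.075).

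NR4A3, the remaining receptor of the family, gave no signal above the floor in either group. Its 3 probe sets (209959_at, 216979_at and 207978_s_at) averaged 2.36 to 2.50 in mock and 2.39 to 2.54 in p16 arrays. No fold can be formed there, and transcripts too few to lift these probe sets off the floor would not be seen.

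KLF2, known for its role in quiescence of lymphocytes and endothelium, fell on the 1 probe set that was above the floor (219371_s_at). It read 9.55, 10.04 and 10.59 in mock arrays V1 to V3 and 6.96, 7.64 and 7.60 in p16 arrays. V1 was the lowest array of both groups, and the groups did not overlap. The difference was -2.66 (SE 0.34, 95% confidence interval -3.50 to -1.83, 6.33-fold lower, adjusted p = 0.0022). The other probe set (226646_at) lay at 2.13 to 2.18 on every array.

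KLF4, the factor of differentiated epithelium, fell by a similar amount on both of its probe sets, 1 of which passed the test. The brighter (221841_s_at) read 11.80, 11.13 and 11.78 in mock and 9.88, 9.11 and 9.38 in p16 arrays. The groups did not overlap, and V2 was the lowest array of each. The difference was -2.11 (SE 0.30, 4.33-fold lower, adjusted p = 0.0031). The dimmer (220266_s_at) read 5.91, 7.96 and 7.04 in mock and 3.02, 6.13 and 5.00 in p16 arrays, so that the p16 V2 array lay above the mock V1 array. The p16 V1 value lies under 4, so the fall is given as at least 3.80-fold, with that value raised to 4. It was not called (adjusted p = 0.11, with a measured difference of -2.25, or -1.41 without the p16 V1 array). The fit with the replicate block called it (adjusted p = 0.0018), and within V2 and V3, where no value was under 4, the difference was -1.83 and -2.05.

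KLF5, the factor of proliferating epithelium, differed little. Its brighter probe set (209211_at) read 10.99, 10.43 and 10.25 in mock and 10.25, 9.79 and 9.76 in p16 arrays, which touched at the mock V3 and p16 V1 arrays. The difference was -0.63 (95% confidence interval -1.28 to 0.03, adjusted p = 0.12, and 0.0093 with the replicate block). The other (209212_s_at) differed by -0.43 (adjusted p = 0.35, and 0.041 with the block), with overlapping groups. For KLF4 and KLF5, which are set against each other in gut epithelium, the difference between their changes was not tested.

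KLF6, a factor widely expressed in epithelium and described as a growth suppressor, had 5 probe sets that behaved differently between arrays. The brightest (224606_at) read 11.57, 11.31 and 11.46 in mock and 9.81, 10.09 and 10.14 in p16 arrays. The arrays of a group lay close together and the groups apart, with a difference of -1.44 (SE 0.17, 2.70-fold lower, adjusted p = 0.0018). The next (1555832_s_at) read 11.41, 10.13 and 10.30 in mock and 10.16, 9.28 and 9.30 in p16 arrays, with V1 the highest array of each group. Its difference of -1.03 was not called without a block (adjusted p = 0.12) and was called with it (0.0029).

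In the other KLF6 probe sets above the floor V1 was by far the lowest array of each group. 208961_s_at read 8.68, 10.54 and 10.10 in mock and 6.13, 9.58 and 9.14 in p16 arrays (difference -1.49, adjusted p = 0.31, and 0.024 with the block), and its difference ranged from -2.14 without the p16 V2 array to -0.42 without the p16 V1 array. 208960_s_at read 5.31, 9.22 and 8.96 in mock and 3.98, 8.61 and 8.30 in p16 arrays (difference -0.87, adjusted p = 0.72, and 0.015 with the block). Within V1, V2 and V3 this last probe set differed by -1.32, -0.61 and -0.67, while V1 minus the mean of V2 and V3 was -3.78 in mock and -4.47 in p16 arrays. Without the p16 V1 array alone its sign turned, to 0.62 (adjusted p = 0.75), since the mock group then keeps a V1 array that the p16 group lacks. The mean over the 4 probe sets gave -1.21 for KLF6 and was not called (adjusted p = 0.13). The fifth (211610_at) lay under 4 on every array.

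**Figure D2:**
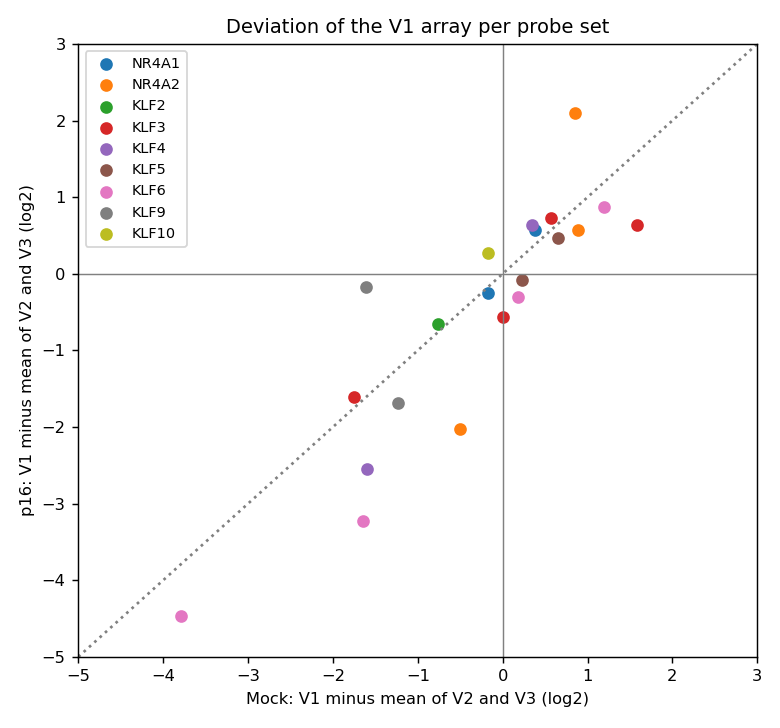
Level of the V1 array minus the mean of V2 and V3 (log2) in the mock group (x axis) and the p16 group (y axis), 1 point for each tested probe set, coloured by gene; the dotted line marks equal deviation. KLF6 probe sets lie on both sides of 0, at -3.78 and -4.47 (208960_s_at, lowest on both axes) and at 1.19 and 0.87 (1555832_s_at), and most points lie in the lower left or upper right corner.

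This split by V number ran through the members. Of the 21 tested probe sets, V1 was below the mean of V2 and V3 in both groups in 9, above it in both groups in 8, and on different sides in 4. Probe sets of 1 gene disagreed on it: for KLF3 225140_at gave V1 minus that mean as -1.75 in mock and -1.61 in p16 arrays, while 219657_s_at gave 1.59 and 0.64. The array's control probe sets for the 3′ and 5′ ends of ACTB and GAPDH, a customary sign of RNA or labelling quality, moved with it. The 3′ minus 5′ difference of ACTB was 2.94, 1.39 and 2.40 in mock V1, V2 and V3 and 3.46, 1.15 and 1.76 in p16 arrays, and that of GAPDH was 1.10, 0.20 and 0.43 and then 0.85, 0.18 and 0.26. V1 had the highest difference of each group for both genes. Its part in the probe set differences was not tested, and the positions of the probe sets along their transcripts were not used here.

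KLF3, a repressor that recruits the cofactor CTBP, was not called on any of its 4 probe sets without the block. The brightest (225133_at) read 10.24, 9.40 and 9.93 in mock and 9.41, 8.60 and 8.76 in p16 arrays, overlapping at the mock V2 and p16 V1 arrays. Its difference was -0.93 (SE 0.32, adjusted p = 0.068), and it was called with the replicate block (adjusted p = 0.0041) and without the p16 V1 array (0.036). The mean over the 4 probe sets was called as well, at -0.57 (adjusted p = 0.025). Of the others, 219657_s_at differed by -1.18 (adjusted p = 0.17, and 0.014 with the block), 222913_at by -0.26 (0.39) and 225140_at by 0.08 (0.94). 225140_at was the only tested member probe set with a difference above 0, with a 95% confidence interval of -1.58 to 1.75, or -0.23 to 0.40 with the block.

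KLF9, a factor induced by glucocorticoid and thyroid hormones, had 2 of 5 probe sets above the floor. The brighter (203543_s_at) read 7.20, 8.29 and 8.57 in mock and 5.18, 6.57 and 7.16 in p16 arrays. V1 was lowest in each group, and the highest p16 array (V3) lay just under the lowest mock array (V1). The difference of -1.72 (SE 0.62) was not called without the block (adjusted p = 0.078) and was called with it (0.0012), being -2.02, -1.72 and -1.41 within V1, V2 and V3. The other (203542_s_at) differed by -1.02 (adjusted p = 0.18, and 0.018 without the mock V1 array), with differences of -0.06, -0.90 and -2.09 within the V numbers, and was not called with the block (adjusted p = 0.090). The remaining 3 probe sets lay at 2.06 to 2.90.

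KLF10, first described as a TGF-beta inducible early gene, was among the bright members and fell by a small amount. Its single probe set (202393_s_at) read 12.22, 12.28 and 12.51 in mock and 11.69, 11.28 and 11.56 in p16 arrays, without overlap. The difference was -0.83 (SE 0.19, 1.77-fold lower, adjusted p = 0.018). The call was lost without the mock V2 (adjusted p = 0.0501), mock V3 (0.064), p16 V2 (0.061) or p16 V3 array (0.059).

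**Figure D3:**
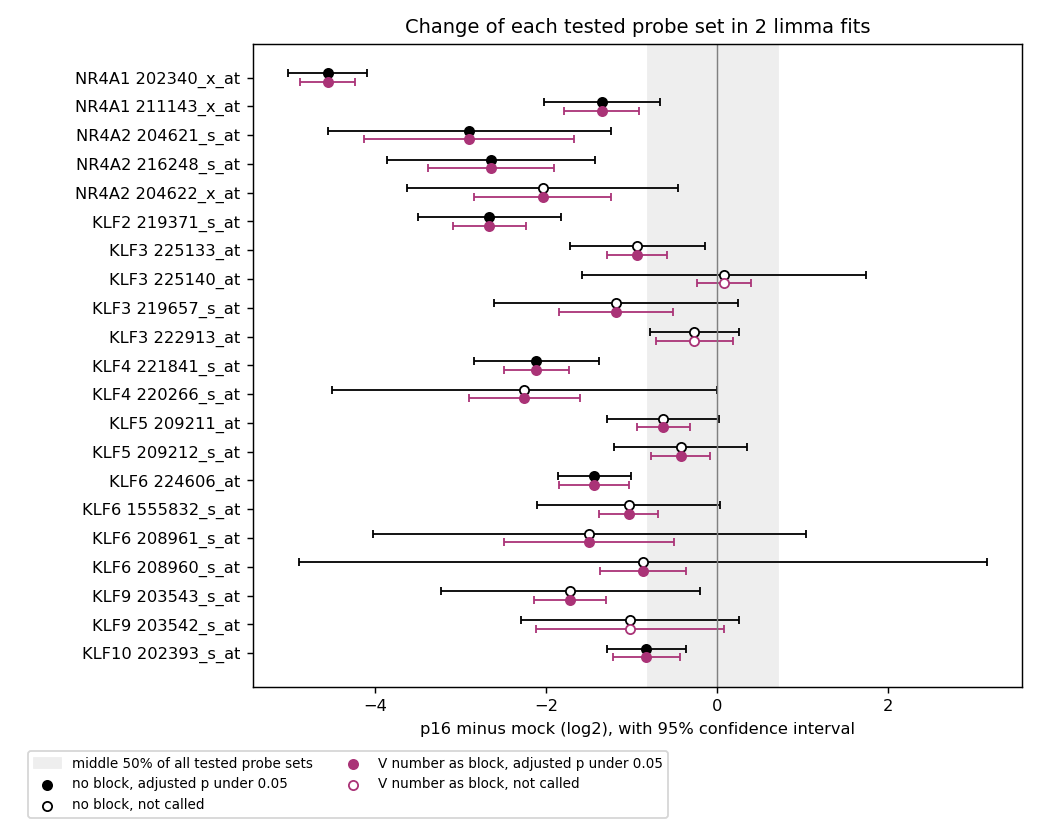
Difference p16 minus mock (log2) with its 95% confidence interval for each tested member probe set, in the limma fit without a block (black) and with the V number as a block (purple); filled points passed an adjusted p of 0.05, and the grey band spans the middle 50% of all 24406 tested probe sets. All differences but 1 lie below 0, and the block narrows the intervals of the KLF6 and KLF9 probe sets that differ by V number.

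By gene, taking the brightest tested probe set, 6 of the 9 members tested fell and none rose (22.5% of 11658 genes fell and 19.5% rose), and with the block all 9 tested fell (35.5% and 32.4%). With the tested probe sets of a gene averaged, 6 fell as well, with KLF3 called in place of KLF6. The order of the falls was NR4A1, NR4A2, KLF2, KLF4, KLF9, KLF6, KLF3, KLF10 and KLF5. The 95% confidence interval of NR4A1 on its brightest probe set (-5.03 to -4.09) overlapped that of NR4A2 (-4.56 to -1.24) and lay below those of the other 7. On the second tested NR4A1 probe set (211143_x_at) the interval was -2.03 to -0.67 and overlapped those of the other 7. From NR4A2 to KLF9 the intervals overlapped widely, and those from KLF9 to KLF5 overlapped as well. Between these runs, the interval of NR4A2 overlapped those of KLF6, KLF3, KLF10 and KLF5. That of KLF2 (-3.50 to -1.83) overlapped that of KLF6 (-1.87 to -1.01) but not those of KLF3, KLF10 and KLF5. That of KLF4 (-2.84 to -1.38) overlapped those of KLF6 and KLF3 but not those of KLF10 and KLF5. No order is therefore read where intervals overlapped, within or between these runs, nor between NR4A1 and NR4A2.

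**Figure D4:**
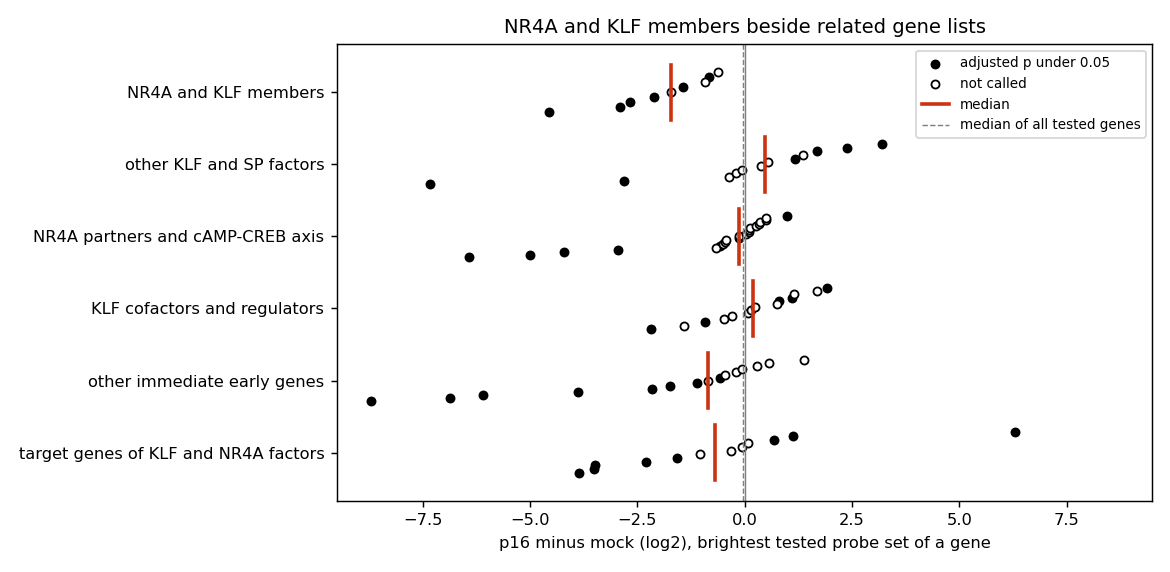
Difference p16 minus mock (log2) of the brightest tested probe set of each gene for the NR4A and KLF members and 5 related gene lists, 1 point per gene, filled where the adjusted p was under 0.05, with the list median in red and the median of all tested genes dashed. The members lie below 0 throughout, the other KLF and SP factors on both sides, and the immediate early genes run from FOS at -8.70 upward.

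The other KLF and SP factors went both ways. Of 20 genes listed 18 had a probe set of their own and 12 were tested, of which 4 rose, 2 fell and 6 were not called (6 rose and 2 fell with the block), with a median of 0.47. Over all genes tested, against which this and the next lists are read, 19.5% rose and 22.5% fell (32.4% and 35.5% with the block), and the median was -0.03. KLF13 read 11.83, 10.34 and 10.12 in mock and 4.22, 3.23 and 2.86 in p16 arrays, at least 103-fold lower (difference -7.33, adjusted p = 0.00034), on 1 of its 2 tested probe sets. The other KLF13 probe set (1564463_at) lay just above the floor, at 4.31 to 4.36 on every array, and differed by 0.03. KLF11, the closest relative of KLF10, was at least 4.28-fold lower (adjusted p = 0.0051), with all 3 p16 arrays under 4. KLF15 rose by 2.39 (6.23 ± 0.14 in mock and 8.62 ± 0.40 in p16 arrays, SD, n = 3, adjusted p = 0.00093), and SP8 rose at least 2.97-fold from the floor.

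Among the partners of NR4A receptors and the cAMP-CREB axis that induces them, 5 of 21 tested genes fell, 1 rose and 15 were not called (8 fell and 4 rose with the block), with a median of -0.13. This is close to the share of all genes tested (22.5%) for the genes that fell and below it (19.5%) for those that rose, of which there were 3 with the probe sets of a gene averaged. RXRA, the retinoid X receptor with which NR4A1 and NR4A2 form heterodimers, read 11.61 ± 0.49 in mock and 5.18 ± 1.07 in p16 arrays (SD, n = 3), 85.8-fold lower (adjusted p = 0.00058). SIK1, a kinase that is itself induced through CREB and restrains its coactivators, was at least 31.6-fold lower (10.32 ± 0.58 against 5.33 ± 1.37, SD, n = 3). MEF2C, of the family that relays calcium signals to NR4A1, was at least 13.5-fold lower, and the acetyltransferase EP300 changed by -2.94 (adjusted p = 0.00056). CREB1 (-0.13) and the coactivators CRTC1, CRTC2 and CRTC3 (-0.14, 0.10 and 0.09) were not called on their brightest probe sets, though 1 of 7 tested CREB1 probe sets was called higher and 1 of 2 of CRTC3 lower. CREM, singled out after its values were seen, was not called on its brightest probe set (228092_at, -0.47, adjusted p = 0.68). With the block that probe set was called lower (limma adjusted p = 0.047). The other 4 of the 5 tested CREM probe sets rose, with and without the block. For 207630_s_at and 209967_s_at the rise was 2.71 and 2.54, and for 214508_x_at and 230511_at, with 1 and 3 mock arrays under 4, it was at least 8.47-fold and 3.97-fold.

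KLF cofactors and regulators had 3 of 14 higher, 2 lower and 9 not called (6 higher and 4 lower with the block), with a median of 0.19, beside 19.5% higher and 22.5% lower of all genes tested (32.4% and 35.5% with the block). With the probe sets of a gene averaged, 2 were higher and 3 lower. The deacetylase HDAC2 rose by 1.92 (adjusted p = 0.0042) and HDAC1 changed by -0.92 (0.017). SMURF1, a ubiquitin ligase, changed by -2.18 (0.0090), on 3 of its 4 probe sets. MAP3K3, a kinase of the ERK5 pathway that induces KLF2 and KLF4, rose by 1.11 (0.027), on 1 of its 2.

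Other immediate early genes, induced by the same kinds of signals as NR4A1, had 8 of 15 tested members lower, none higher and 7 not called, with a median of -0.85, beside 22.5% lower and 19.5% higher of all genes tested. With the block 10 were lower and 1 (MYC) higher, beside 35.5% and 32.4%, and without it 1 was higher at an unadjusted p under 0.05. FOS read 12.39, 13.49 and 12.90 in mock and 2.61, 5.43 and 4.64 in p16 arrays, at least 301-fold lower (difference -8.70, adjusted p = 0.0005). FOSB was at least 98.2-fold lower, EGR3 at least 65.7-fold and ZFP36, which destabilises AU-rich mRNAs, 14.7-fold (adjusted p = 0.0018, 7.5e-05 and 3.9e-05). With the probe sets of a gene averaged, 10 were lower and none higher. Not all members of the list moved: JUN differed by -0.07 and CCN1 by 0.28 on their brightest probe sets.

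Of 21 genes known as targets of KLF or NR4A factors in other cells, 12 were tested, and 5 fell, 3 rose and 4 were not called (6 fell and 3 rose with the block), with a median of -0.69. Of all genes tested 22.5% fell and 19.5% rose (35.5% and 32.4% with the block), with a median of -0.03, and with the probe sets of a gene averaged 1 of the targets rose in place of 3. CDKN1A, which KLF4 and KLF6 activate, read 11.00 on all 3 mock arrays and 7.83, 7.37 and 7.27 on the p16 arrays, 11.4-fold lower (adjusted p = 9.6e-05). KRT19, a keratin that KLF4 can activate, changed by -3.86, and PDGFA, a KLF5 target, was at least 3.87-fold lower with all p16 arrays under 4. KRT19 is also 1 of the duct epithelial markers, of which 6 of 8 tested fell and none rose (median -2.38). ENG, a KLF6 target, went the other way, from 2.21 ± 0.01 in mock to 8.51 ± 0.37 in p16 arrays (SD, n = 3), at least 22.7-fold higher (adjusted p = 1.9e-05). Whether any of these followed the level of its regulator was not tested.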

How the data were processed

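Levels were the authors' deposited log2 values, which GCRMA had made, per the submitters' processing notes; no version is given. Scanner files were not used. The table held 54675 probe sets for 6 arrays. After 62 control probe sets were set aside, 41091 of 54613 had 1 gene in the platform annotation, 1801 several and 11721 none. Current symbols came from RefSeq (GRCh38.p14).

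A probe set was tested if it reached 4 on at least 3 arrays. limma 3.58.1 in R 4.3.3 (lmFit, eBayes, two-sided, no block) compared 3 p16 with 3 mock arrays. Adjustment was by Benjamini-Hochberg over 24406 probe sets, with a threshold of 0.05. A gene took its brightest tested probe set. A group with values under 4 gives a fold as "at least", with those values raised to 4. The number of arrays limits the precision.

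Deviations from the group mean were correlated between the mock and p16 samples of a number (0.81, 0.75 and 0.67 across tested probe sets). They were also correlated between mock V2 and p16 V3 (0.51) and between mock V3 and p16 V2 (0.42). Every pair of V1 with another number gave -0.74 to -0.62. The 3 deviations of a group sum to 0, so these negative values follow from the positive V1 value and are no separate observation. By the positive values between them, V2 and V3 were told apart less clearly than V1. The V number was a block only in the alternative fit, and calls are from the fit without it unless stated. What a V number means is not in the labels. The members and lists were chosen with earlier results of these data known. All members were named, with CDKN2A and MTAP, per other list up to 4 called genes with the largest change, and for NR4A1, the member with the largest called fall, its 3 nearest profiles; no member rose. The limma script was tested on simulated data with 200 probe sets changed. The noise there was independent between arrays, with no V number effect, so that test does not bear on the calls made here. Alternatives covered the block, the filter, normalization, the floor, the variance model, the probe set rule and each array left out. Figures used Python 3.11.15 and matplotlib 3.10.9.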

Additional observations from a re-analysis of the deposited data

How the results depend on the processing

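With a replicate block for the V number, the count of lower member probe sets moved from 8 to 18, and over all probe sets 7951 fell and 7551 rose, against 4819 and 4267. Without the V1 arrays of both groups 17 member probe sets fell, and 6811 probe sets fell and 6621 rose in all. Leaving out each array in turn gave 5 to 10 lower member probe sets (5 without p16 V3) and 0 higher ones. Over all probe sets it gave 3492 to 4793 lower and 2926 to 4329 higher, with the smallest of both counts without p16 V3. No filter gave 7 lower member probe sets, a floor of 5 gave 9, and quantile normalization, centring on the array median, raising values under 4 and a trended robust variance each gave 8. Over all probe sets 3892 fell and 3528 rose with no filter, and 4522 and 4024 with a floor of 5. The remaining settings gave 4562 to 4755 lower and 4157 to 4600 higher. No member difference called in the fit without the block changed its sign under any of these settings. Differences not called in that fit did so in 2 KLF3 probe sets and 1 of KLF6, 208960_s_at, which the block had called lower. 225140_at turned to -0.50, -0.18 and -0.19 without mock V1, p16 V2 and p16 V3, and 222913_at to 0.0086 with quantile normalization. 208960_s_at turned to 0.62 without p16 V1 (its range over arrays left out was -2.13 to 0.62, and that of 225140_at -0.50 to 0.62). The block changed no member call other than the 10 given in the report. The cause of these changes was not tested. Probe sets under 4 have no order, which limits what can be said of NR4A2 in p16 cells and of NR4A3.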
